A study of Mus musculus with 33 samples.

Results

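The genes described here are 8 of the 19169 genes in a count table of mouse liver RNA, namely the neutrophil-attracting CXC chemokine ligands Cxcl1, Cxcl2, Cxcl3 and Cxcl5, their receptors Cxcr1 and Cxcr2, granulocyte colony-stimulating factor (G-CSF, gene Csf3) and the G-CSF receptor Csf3r. They were chosen by gene name, and all 8 were in the table. The study sequenced polyadenylated RNA of 33 liver libraries. Mice called KI (knock-in) had the genotype Nlrp3A350V/+CreT, a heterozygous Nlrp3 allele with the change A350V that is switched on by tamoxifen through a Cre recombinase, and they were compared with wild-type (WT) mice. NLRP3 is the sensor of an inflammasome that activates interleukin-1 beta. One diet held the ASK1 inhibitor GS-444217 (ASK1i), and the other was control chow, labelled as placebo; both were given for 6 weeks. The groups were KI ASK1i with 10 libraries (5 female, 5 male), KI control with 5 (1 female, 4 male), WT ASK1i with 8 (4 female, 4 male) and WT control with 10 (7 female, 3 male). The sources used here do not give the promoter that drives Cre, the ages, the inhibitor dose, whether WT mice also received tamoxifen, or whether each library is a separate mouse. P-values therefore measure the spread between libraries, which may be technical.

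CXC chemokines with the glutamate-leucine-arginine motif, among them the proteins of Cxcl1, Cxcl2, Cxcl3 and Cxcl5, bind CXCR2 on neutrophils and draw them from blood into tissue. In inflamed liver they are made by macrophages, endothelial and stellate cells and hepatocytes, among other cells. Their genes are switched on by interleukin-1, tumour necrosis factor and interleukin-17 through NF-kB. G-CSF acts on the receptor CSF3R of myeloid precursors and neutrophils, drives the production of neutrophils in bone marrow and releases them into blood. In whole liver, the RNA of the ligand genes and of Csf3 may come from several cell types, and which cells carried it was not measured. Cxcr2 and Csf3r are carried by neutrophils, and Csf3r also by monocytes and macrophages. Since these are bulk samples, a change in the number of cells of a type and a change in RNA per cell cannot be told apart.

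The 4 ligand genes lie on chromosome 5, within 146641 bases of mm10, in the order Cxcl5, Cxcl3, Cxcl1, Cxcl2. The gaps between them are 24475, 103151 and 10783 bases in that order, and other genes may lie in them. Cxcl1 (Entrez gene 14825) spans 90891245 to 90893115, Cxcl2 (20310) spans 90903899 to 90905938, Cxcl3 (330122) spans 90786101 to 90788093 and Cxcl5 (20311) spans 90759298 to 90761625. Cxcr2 (12765; 74153994 to 74161246) and Cxcr1 (227288; 74191786 to 74194631) are neighbours on chromosome 1. Csf3 (12985) lies on chromosome 11 from 98701313 to 98703629, and Csf3r (12986) on chromosome 4 from 126024659 to 126044975. RefSeq promoter entries matched 6 of the 8 genes. Cxcl5 and Csf3 had no entry, so their promoters were not searched. The 100 bases before the starts of Cxcl1, Cxcl2 and Cxcl3 (RefSeq, GRCm38.p6, plus strand) are shown because these 3 genes share the same short elements. Capitals mark NF-kB letters (GGGNNNTTCC on either strand) and TATA letters (ATAAAAG). Cxcl1 is chr5:90891145-90891244, Cxcl2 is chr5:90903799-90903898 and Cxcl3 is chr5:90786001-90786100.
Cxcl1: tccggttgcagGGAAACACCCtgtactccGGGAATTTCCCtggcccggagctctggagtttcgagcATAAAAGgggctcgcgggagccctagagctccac
Cxcl2: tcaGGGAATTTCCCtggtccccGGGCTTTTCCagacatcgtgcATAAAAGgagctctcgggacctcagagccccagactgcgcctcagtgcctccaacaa
Cxcl3: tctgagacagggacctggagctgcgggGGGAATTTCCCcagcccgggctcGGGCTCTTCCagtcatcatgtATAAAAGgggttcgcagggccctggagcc
Each of the 3 windows held the exact letters GGGAATTTCC on the plus strand, a minus-strand match of the NF-kB pattern shifted by 1 base and overlapping it, and a TATA match nearer the start. The looser pattern GGGNNNTTCC was in 2.00% and ATAAAAG in 2.21% of the 32841 promoters of the same length, both together in 11 (0.0335%), and GGGAATTTCC in 10 (0.0304%). Besides Cxcl1, Cxcl2 and Cxcl3, the promoters with both patterns belonged to Ccl9, Cd300lb, Gm36167, Gm43380, Lce1c, Lce1j, Rbp2 and Snhg8. The patterns were picked after the sequences were seen, and a match is a description of letters, not of factor binding.

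Library depth was 32245900 to 38393474 counts in KI ASK1i, 33754743 to 38584259 in KI control, 30212449 to 40008114 in WT ASK1i and 28099685 to 33572199 in WT control. Nlrp3 lay between 2.10 and 11.0 CPM (counts-per-million of normalised library size) in KI ASK1i and between 2.38 and 3.88 CPM in WT ASK1i. Of the 10 KI ASK1i libraries, 9 lay above all WT ASK1i libraries. It lay between 7.87 and 15.6 CPM in KI control and between 1.62 and 4.96 CPM in WT control, without overlap. Map3k5, which encodes ASK1, the kinase the inhibitor acts on, was at 19.9 to 36.9 CPM in KI ASK1i, 17.9 to 25.0 CPM in KI control, 26.6 to 51.7 CPM in WT ASK1i and 28.0 to 63.9 CPM in WT control. By edgeR the log2 fold change of Map3k5 was -0.61 (adjusted p = 0.000292) for KI ASK1i against WT ASK1i. It was -0.74 (adjusted p = 0.000407) for KI control against WT control. RNA of Map3k5 does not measure inhibition of the kinase. Gene counts do not separate the mutant Nlrp3 transcript from the wild-type one. In bulk liver the Nlrp3 level may also follow the cells present, so it is no independent check of the genotype. The KI ASK1i library that lay apart was the library labelled replicate 5, with 2.10 CPM of Nlrp3, and in the genes below it also lay at or near the WT level. The summed level of 11 neutrophil marker genes (S100a8, S100a9, Mmp8, Ngp, Ltf, Camp, Retnlg, Mpo, Elane, Itgam and Lcn2, of which hepatocytes also make Lcn2) was 48.6 CPM in that library, against a median of 7113 CPM over all KI ASK1i libraries. It ran from 48.6 to 11386 CPM in KI ASK1i, 6416 to 8363 CPM in KI control, 26.6 to 52.3 CPM in WT ASK1i and 20.4 to 142 CPM in WT control. All 11 were higher in KI than in WT on both diets, and none was called with diet in either genotype. Monocyte and macrophage markers (7 of 7) and Kupffer cell markers (6 of 6) were higher in KI too. Of all genes tested, 30.3% were called higher in KI on the inhibitor diet and 27.8% on the control diet. No neutrophil marker was at 0 in every library. The hepatocyte marker sum ran from 31801 to 103138 CPM in KI ASK1i (the highest in the library labelled replicate 5), 29051 to 56311 CPM in KI control, 97293 to 134568 CPM in WT ASK1i and 104388 to 125667 CPM in WT control. Of the 6 hepatocyte markers, 1 was called higher and 2 lower in KI ASK1i than in WT ASK1i. In KI control against WT control, 0 were called higher and 3 lower, so the 6 did not all move with their sum. The part of these cell differences in the results below was not tested, beyond the relation within KI given further on.

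**Figure D1:**
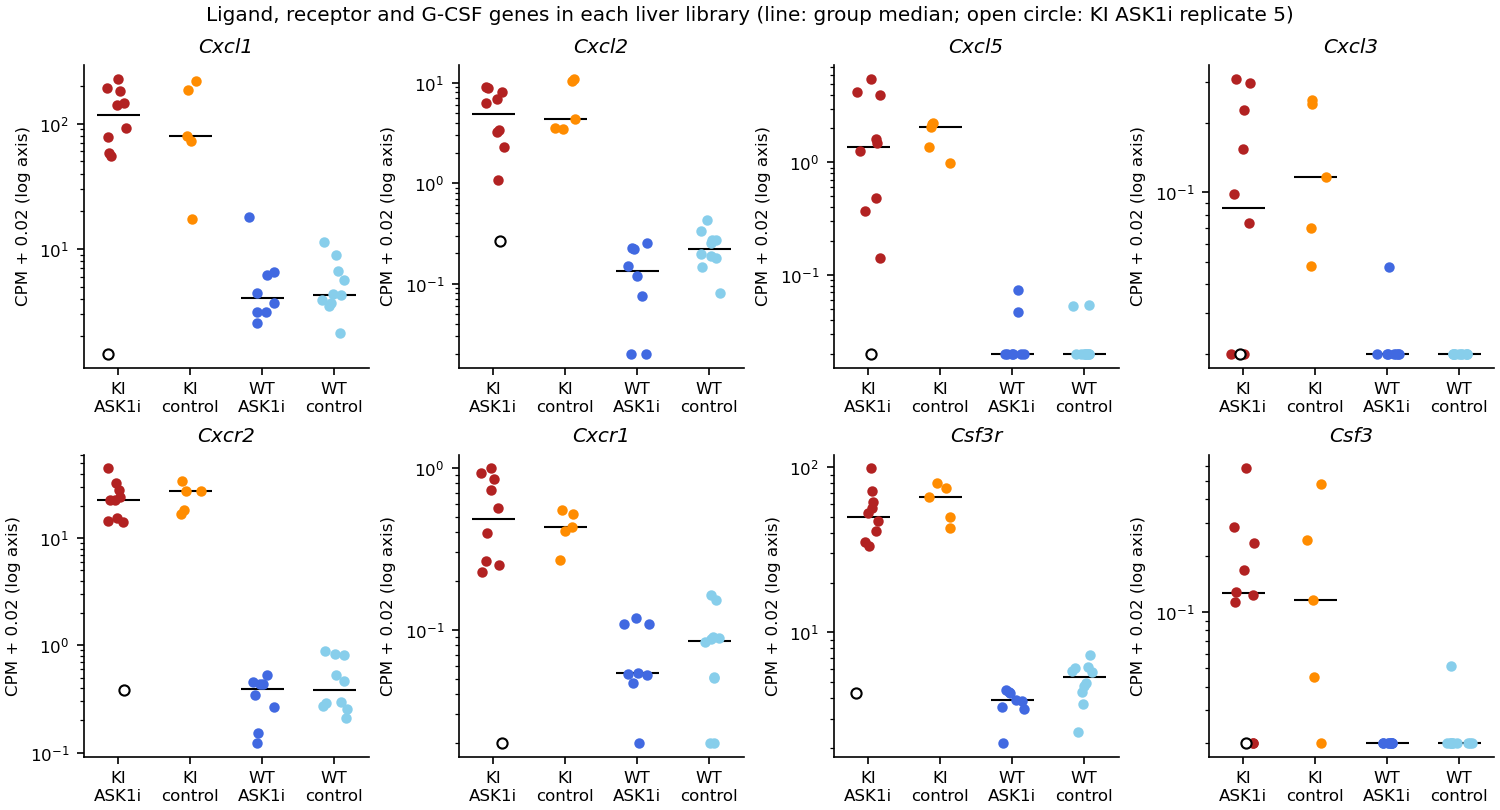
Level of each of the 8 genes in every library, as CPM plus 0.02 on a log axis; each point is a library, lines are group medians and the open circle is the library labelled KI ASK1i replicate 5. KI libraries other than that one lie above nearly all WT libraries in Cxcl1, Cxcl2, Cxcl5, Cxcr2, Cxcr1 and Csf3r, and the 2 diets overlap within each genotype.

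KI liver held more transcripts of all 4 ligand genes, of both receptors, of Csf3 and of Csf3r than WT liver, on either diet. Of the 8 genes, 6 had enough counts for the fit across all genes, and all 6 were called higher in KI ASK1i than in WT ASK1i and in KI control than in WT control (edgeR quasi-likelihood test, adjusted p below 0.05). The background was high: 30.3% of the 14934 genes tested were called higher in KI ASK1i than in WT ASK1i, and 27.8% were called higher in KI control than in WT control. The share called lower was 28.8% in the first comparison and 28.9% in the second, which makes 59.1% and 56.7% in either direction. The count of 6 is not support beside that background, because Cxcl2, Cxcl5 and Cxcr1 passed the filter (about 0.300 CPM in at least 5 libraries) only through the KI libraries in which they were high. Of the 18 WT libraries, 2 reached that level for Cxcl2 and 0 for Cxcl5 and Cxcr1. Cxcl1, Cxcr2 and Csf3r would have passed on the WT libraries alone. In KI control against WT control, 4145 genes were higher and 4321 lower; with raw library totals in place of normalised ones, 5016 were higher and 2905 lower, and the 6 genes kept their direction. Cxcl3 and Csf3 did not pass the count filter and were tested singly.

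Cxcl1, whose product (also called KC) is a main CXCR2 ligand of the mouse, was the most abundant of the 8 genes per kilobase of transcript in each of the 4 groups. In KI ASK1i it ran from 1.43 to 228 CPM, with a median of 117 CPM. The KI control libraries had 17.2, 73.0, 79.6, 185 and 221 CPM. In WT ASK1i the range was 2.53 to 18.0 CPM (median 4.04), and in WT control 2.11 to 11.4 CPM (median 4.29). All 5 KI control libraries lay above all 10 WT control libraries, and 9 of 10 KI ASK1i libraries lay above all 8 WT ASK1i libraries, while the library labelled replicate 5 lay below them all. The log2 fold change was 4.25 (SE 0.60, adjusted p = 7.15e-07) for KI ASK1i against WT ASK1i and 4.19 (SE 0.62, adjusted p = 1.95e-06) for KI control against WT control, by edgeR. The lowest KI control library, with 17.2 CPM, lay just under the highest WT ASK1i library, with 18.0 CPM.

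Cxcl2, which encodes the CXCR2 ligand MIP-2, was far less abundant than Cxcl1, but no KI library overlapped WT on the same diet. It ran from 0.244 to 9.03 CPM in KI ASK1i (median 4.82), and the KI control libraries had 3.43, 3.54, 4.34, 10.5 and 10.9 CPM. In WT ASK1i it ran from 0 to 0.236 CPM (median 0.114, with 2 libraries at 0), and in WT control from 0.0614 to 0.405 CPM (median 0.203). The library labelled KI ASK1i replicate 5, with 8 counts, was the lowest KI library and only just above the highest WT ASK1i one. That WT ASK1i library also had 8 counts, so only the scaling for library size set the 2 apart. Replicate 5 lay inside the range of WT control. The log2 fold change was 5.36 (SE 0.56, adjusted p = 6.95e-09) for KI ASK1i against WT ASK1i and 5.38 (SE 0.54, adjusted p = 6.17e-09) for KI control against WT control (edgeR).

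Cxcl5, which encodes the ligand LIX, was nearly absent from WT liver. The counts summed to 664 over 10 KI ASK1i libraries, 342 over 5 KI control libraries, 3 over 8 WT ASK1i libraries and 2 over 10 WT control libraries. KI control libraries had 35, 49, 81, 86 and 91 counts (0.974 to 2.20 CPM), and no WT library had more than 2 counts. In KI ASK1i the level ran from 0 to 5.48 CPM with a median of 1.34 CPM, the 0 being the library labelled replicate 5; the next lowest had 4 counts. The summed counts, scaled by library size, were 173 times as high in KI ASK1i as in WT ASK1i (counting interval 59.1 to 843) and 295 times as high in KI control as in WT control (81.1 to 2449). Intervals of this kind cover counting error only. By edgeR the adjusted p was 2.01e-07 for KI ASK1i against WT ASK1i and 2.96e-07 for KI control against WT control.

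Cxcl3, which encodes another CXCR2 ligand and lies between Cxcl5 and Cxcl1, was close to the detection limit. The 5 KI control libraries had 1, 2, 4, 8 and 9 counts, and none of the 10 WT control libraries had a count. The level in KI control was at least 13.8-fold higher, taking 3 counts over the WT control group as the floor (exact permutation test, two-sided, p = 0.000666, the smallest the design allows; adjusted p = 0.00533 over the 8 exact tests on Cxcl3 and Csf3). In KI ASK1i, 6 of 10 libraries held Cxcl3 counts, 11 at most, against 1 count in 1 of 8 WT ASK1i libraries. The ratio was 29.0 with a counting interval of 4.89 to 1176, and the exact permutation p was 0.0226 (adjusted p = 0.0452). That call was lost (adjusted p up to 0.0814) when any of 14 of the 18 libraries was left out in turn, namely any WT ASK1i library or any KI ASK1i library that held counts. When no gene was filtered out, edgeR gave adjusted p = 0.00175 for KI ASK1i against WT ASK1i and 0.000341 for KI control against WT control over all genes.

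Cxcr2, the receptor through which these ligands act on mouse neutrophils, had the largest log2 fold change of the 6 genes after Cxcl5. It ran from 0.366 to 44.8 CPM in KI ASK1i (median 22.6), and the KI control libraries had 16.8, 18.2, 27.4, 27.7 and 34.0 CPM. In WT ASK1i it ran from 0.103 to 0.510 CPM (median 0.370), and in WT control from 0.191 to 0.860 CPM (median 0.363). The KI and WT libraries did not overlap, apart from the library labelled KI ASK1i replicate 5, whose 12 counts lay inside the WT range. The log2 fold change was 6.08 (SE 0.53, adjusted p = 6.64e-10) for KI ASK1i against WT ASK1i and 5.89 (SE 0.52, adjusted p = 1.93e-09) for KI control against WT control (edgeR).

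Cxcr1, which in humans encodes a receptor of CXCL8, was the scarce receptor. It ran from 0 to 0.973 CPM in KI ASK1i (median 0.461), and the KI control libraries had 0.249, 0.389, 0.410, 0.499 and 0.531 CPM. In WT ASK1i it ran from 0 to 0.0979 CPM and in WT control from 0 to 0.143 CPM, or at most 4 counts in a library. All 5 KI control libraries lay above all WT control libraries and 9 of 10 KI ASK1i libraries above all WT ASK1i libraries. The log2 fold change was 3.24 (SE 0.57, adjusted p = 1.48e-05) for KI ASK1i against WT ASK1i and 2.62 (SE 0.63, adjusted p = 0.000759) for KI control against WT control (edgeR). Since Cxcr1 lies beside Cxcr2 and resembles it, reads that fit both genes would be divided between them.

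Csf3r, the G-CSF receptor, was the most evenly expressed of the 8 genes within each KI group. It ran from 4.30 to 98.2 CPM in KI ASK1i (median 50.1), and the KI control libraries had 42.9, 50.1, 66.0, 74.1 and 79.4 CPM. In WT ASK1i it ran from 2.12 to 4.49 CPM (median 3.86), and in WT control from 2.48 to 7.25 CPM (median 5.31). Again only the library labelled KI ASK1i replicate 5 overlapped WT. The log2 fold change was 3.78 (SE 0.34, adjusted p = 8.90e-10) for KI ASK1i against WT ASK1i and 3.73 (SE 0.35, adjusted p = 2.83e-09) for KI control against WT control (edgeR).

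Csf3, which encodes G-CSF, the ligand of that receptor, was detected in KI liver at a low level. The KI control libraries had 0, 1, 4, 8 and 18 counts, and 1 of 10 WT control libraries had 1 count. The ratio of scaled counts was 53.5 (counting interval 8.92 to 2182; exact permutation test, two-sided, p = 0.0140, adjusted p = 0.0373 over the 8 exact tests). That call was lost (adjusted p = 0.0839) when any of 3 KI control libraries, those with 4, 8 or 18 counts, was left out. In KI ASK1i, 7 of 10 libraries held Csf3 counts, 21 at most and 54 in all, and no WT ASK1i library held any. The level was at least 14.1-fold higher in KI ASK1i (exact permutation p = 0.00754, adjusted p = 0.0302). When no gene was filtered out, edgeR gave adjusted p = 0.000785 for KI ASK1i against WT ASK1i and 0.00142 for KI control against WT control over all genes.

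Leaving out the library labelled KI ASK1i replicate 5 did not end a call of these 8 genes. The log2 fold changes of KI ASK1i against WT ASK1i were then 4.40 for Cxcl1, 5.58 for Cxcl2, 7.21 for Cxcl5, 6.29 for Cxcr2, 3.41 for Cxcr1 and 3.96 for Csf3r. Without it the mean levels in KI ASK1i were 131 ± 62.7 CPM for Cxcl1, 24.3 ± 9.90 CPM for Cxcr2 and 55.2 ± 20.3 CPM for Csf3r (SD, n = 9), against 118 ± 71.9, 21.9 ± 12.0 and 50.1 ± 25.0 CPM with it (SD, n = 10). The titles carry L codes whose meaning is not stated. No L code held both KI control and WT control libraries, so for that comparison a batch the code may mark and the genotype cannot be told apart within a code. The codes were uneven between the diets in KI as well. L1 held 4 KI ASK1i libraries and 1 KI control library, L7 held 1 and 4, and L8 held KI ASK1i but no KI control libraries. The diet comparison in KI is thus partly mixed with the code. Within the code L1, all 4 KI ASK1i libraries lay above both WT ASK1i libraries for Cxcl1, Cxcl2, Cxcl5, Cxcr1, Cxcr2 and Csf3r, and 2 of 4 did for Cxcl3 and for Csf3. The share of all genes that lie apart in this way within L1 was not counted, so these values are a description and not support. With the L code in the model the 6 genes were still called in both KI against WT comparisons, with Cxcr1 at adjusted p = 0.0476 in KI control against WT control (edgeR). In that comparison, 2737 of the 14934 genes tested were then called higher and 2366 lower.

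The inhibitor diet was not seen to change the genes in either genotype. In KI ASK1i against KI control, 0 of the 6 genes were called by edgeR (background 0.0536%, 8 genes), 0 had an unadjusted p below 0.05, and DESeq2 and limma-voom called 0 as well. In WT ASK1i against WT control none was called by these tools either (background 1.40% of genes, 1.13% higher and 0.268% lower), with 0 at an unadjusted p below 0.05. For Cxcl5 (3 counts in WT ASK1i and 2 in WT control) and Cxcr1 (13 and 18 counts) this says little, since counts this low leave almost no room for a call. In KI, the log2 fold changes with 95% intervals were 0.13 (-1.08 to 1.34) for Cxcl1, -0.64 (-1.59 to 0.30) for Cxcl2, -0.17 (-1.42 to 1.09) for Cxcl5, -0.23 (-1.12 to 0.67) for Cxcr2, 0.32 (-0.74 to 1.37) for Cxcr1 and -0.32 (-1.004 to 0.36) for Csf3r. Each interval holds 0 and reaches past 1 log2 unit in at least 1 direction. A fall of that size was not excluded for Cxcl1, Cxcl2, Cxcl5, Cxcr2 and, by a narrow margin, Csf3r, and a rise of that size was not excluded for Cxcl1, Cxcl5 and Cxcr1. The upper limits for Cxcl2, Cxcr2 and Csf3r lay below a rise of 1 log2 unit. The narrowest was that of Csf3r, whose mean was 50.1 ± 25.0 CPM in KI ASK1i (SD, n = 10) and 62.5 ± 15.6 CPM in KI control (SD, n = 5). All 6 intervals include the library labelled replicate 5, which lay at or near the WT level. Intervals without it are not given. Without it the Csf3r mean in KI ASK1i was 55.2 ± 20.3 CPM (SD, n = 9). With 1 library left out in turn, the values ran from -0.59 to -0.18 for Csf3r and -0.58 to -0.07 for Cxcr2. They ran from -0.89 to -0.33 for Cxcl2, 0.08 to 0.46 for Cxcr1, -0.15 to 0.41 for Cxcl1 and -0.77 to 0.06 for Cxcl5.

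In WT the intervals were wider still for the genes with few counts. The log2 fold changes were 0.07 (-1.04 to 1.18) for Cxcl1, -0.63 (-1.999 to 0.74) for Cxcl2, -0.41 (-1.65 to 0.83) for Cxcr2, -0.30 (-1.75 to 1.14) for Cxcr1 and -0.38 (-1.03 to 0.27) for Csf3r. Cxcl5 had too few counts for a fold change. Cxcl3 and Csf3 were not called with diet in KI either (exact permutation p = 0.560 for Cxcl3 and p = 0.934 for Csf3). The difference of the diet effect between KI and WT was called for 0 of 6 genes (edgeR, background 0.00%, 1251 genes at an unadjusted p below 0.05 but 0 of the 6; DESeq2 called 16 genes, limma-voom 2, and neither called any of the 6). The pairs of comparisons with KI ASK1i, or with WT control, in common share those libraries.

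**Figure D2:**
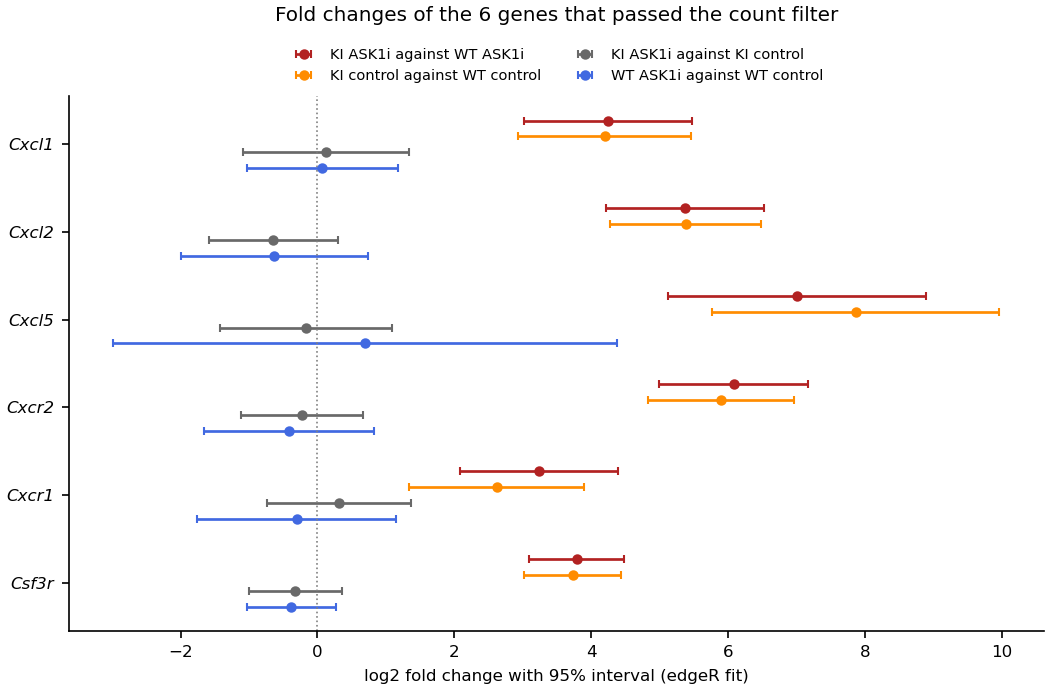
Log2 fold changes of the 6 genes that passed the count filter, with 95% intervals from the edgeR fit, in 4 comparisons. The KI against WT values (red and orange) lie from 2.62 to 7.86 and their intervals exclude 0, and the diet values (grey and blue) have intervals that hold 0; every Cxcl5 value that involves WT rests on 2 or 3 counts in a WT group, and its WT diet value (blue) is no measured fold change.

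Per kilobase of transcript, the order of mean levels was Cxcl1, Csf3r, Cxcr2, Cxcl2, Cxcl5 and Cxcr1 in both KI groups, with Cxcl3 and Csf3 last. In KI control these means were 121 ± 88.9, 18.0 ± 4.48, 8.15 ± 2.37, 5.88 ± 3.42, 1.11 ± 0.353 and 0.369 ± 0.0982 CPM per kilobase (SD, n = 5). Cxcr2 and Cxcl2 lay within their spread of each other, as did Cxcl3 (0.123 ± 0.0938) and Csf3 (0.114 ± 0.134). In WT control the order was Cxcl1 (5.70 ± 2.98), Csf3r (1.47 ± 0.398), Cxcl2 (0.193 ± 0.0882), Cxcr2 (0.153 ± 0.0869), Cxcr1 (0.0540 ± 0.0432) and Cxcl5 (0.00429 ± 0.00905) (CPM per kilobase, SD, n = 10), so that Cxcl5 stood above Cxcr1 in KI and below it in WT. Within KI the ligand genes varied more from library to library than the receptor genes Cxcr2 and Csf3r. In KI control the highest library stood 12.8 times above the lowest for Cxcl1 and 3.17 times for Cxcl2, against 2.03 times for Cxcr2 and 1.85 times for Csf3r. In the other 9 KI ASK1i libraries the same ratio was 44.8 for Cxcl5, 8.65 for Cxcl2 and 4.09 for Cxcl1, against 3.19 for Cxcr2 and 2.93 for Csf3r. Cxcl5 in KI control, at 2.26 times, was close to the receptors.

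Ratios within a library do not depend on how libraries are scaled. The exact tests on them had no term for sex or title set, and sex was uneven between groups. The log2 ratio of Cxcr2 to Csf3r counts (1 added to each) averaged -1.43 ± 0.72 in KI ASK1i and -3.52 ± 0.57 in WT ASK1i (SD, n = 10 and 8), a difference of 2.09 (exact permutation test, two-sided, adjusted p = 0.00329 over 12 tests). It averaged -1.34 ± 0.16 in KI control and -3.50 ± 0.55 in WT control (SD, n = 5 and 10), a difference of 2.15 (exact permutation p = 0.000666, the smallest the design allows; adjusted p = 0.0040). All 5 KI control libraries, from -1.52 to -1.12, lay above all WT control libraries, which ran from -4.35 to -2.78. The library labelled KI ASK1i replicate 5 had a ratio of -3.45, inside the WT range, and without it the difference on the inhibitor diet was 2.31. Both genes are carried by neutrophils, while Csf3r is also carried by monocytes and macrophages, whose markers were higher in KI as well. The diet did not shift this ratio detectably in KI (difference -0.09, exact permutation p = 0.739) or in WT (difference -0.02, exact permutation p = 0.930). For the ligands, the log2 ratio of Cxcl2 to Cxcl1 averaged -4.46 ± 1.35 in KI ASK1i and -5.45 ± 1.23 in WT ASK1i, and -3.87 ± 1.52 in KI control and -4.42 ± 1.09 in WT control, and neither difference was called (exact permutation test, adjusted p = 0.313 and 0.632). The ratio of Cxcl5 to Cxcl1 differed by 1.38 between KI control and WT control (adjusted p = 0.107), and by 2.24 (adjusted p = 0.0186) when 0.5 counts were added in place of 1 (exact permutation tests). The WT side of that ratio is set by the added count, because 8 of 10 WT control libraries had 0 Cxcl5 counts.

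**Figure D3:**
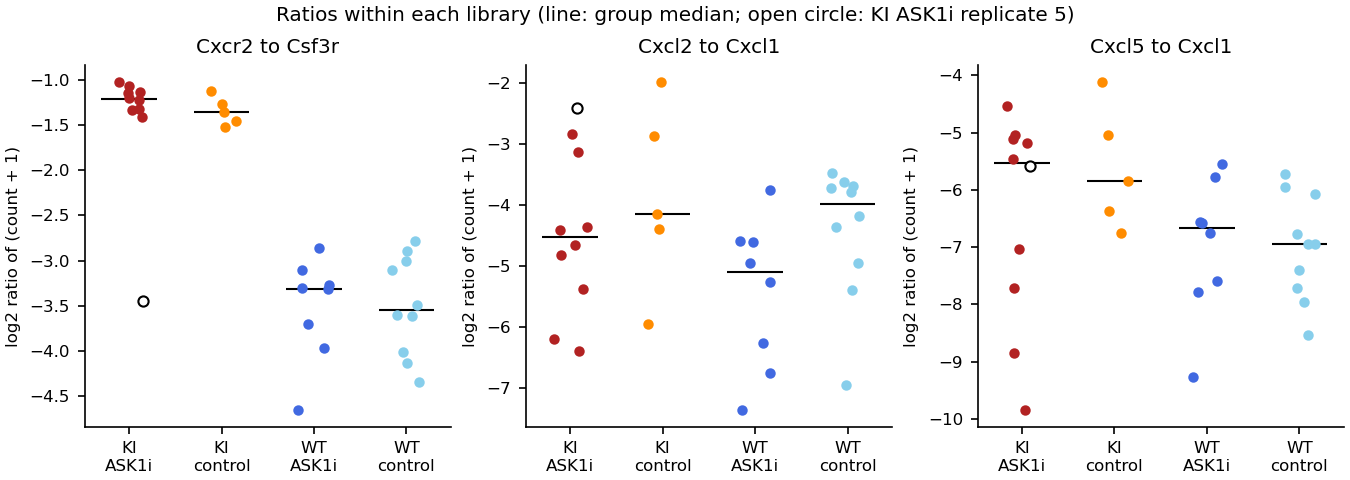
Log2 ratio of counts (1 added to each gene) within each library for 3 pairs of genes; points are libraries, lines are group medians and the open circle is the library labelled KI ASK1i replicate 5. The Cxcr2 to Csf3r ratio separates KI (-1.52 to -1.02 without that library) from WT (-4.66 to -2.78), and the groups overlap in the other 2 ratios.

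The relation of the genes to each other and to neutrophil markers was taken within KI, over 14 libraries, as log2 CPM with the mean of the diet group subtracted. The library labelled KI ASK1i replicate 5 was left out, because KI and WT libraries form separate clusters and it lay with WT. Cxcr2 and Csf3r followed the mean of the 11 neutrophil markers (Pearson r = 0.86 for Cxcr2 and 0.85 for Csf3r, permutation test, adjusted p = 0.00042 each over 6 relations; Spearman rho 0.86 and 0.87, adjusted p = 0.00051 each). Without the 2 libraries farthest from the median, r was 0.79 for Cxcr2 and 0.72 for Csf3r. Cxcr1 had r = 0.60 (permutation adjusted p = 0.0478) and rho = 0.59 (adjusted p = 0.058), and r = 0.49 without those 2 libraries.

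No ligand gene had a called relation to the neutrophil markers within KI. Cxcl1 had r = 0.15 (rho = 0.08, permutation adjusted p = 0.599), Cxcl2 r = 0.21 (rho = -0.002, adjusted p = 0.567) and Cxcl5 r = 0.29 (rho = 0.29, adjusted p = 0.482). The values for Cxcl1 and Cxcl5 were -0.29 and -0.11 without the 2 farthest libraries. Whether the ligands differ from the receptors in this relation was not tested. None of the 6 ligand and receptor pairs was called: Cxcl1 had r = -0.06 with Cxcr2 and -0.11 with Csf3r (permutation adjusted p = 0.83 for both), Cxcl2 0.55 and 0.51 (adjusted p = 0.191 for both), and Cxcl5 0.39 and 0.44 (adjusted p = 0.258 and 0.24). Their rho values were -0.11 and -0.07, 0.34 and 0.30, and 0.43 and 0.39. Without the 2 farthest libraries these 6 values of r were -0.23, -0.23, 0.48, 0.50, -0.10 and -0.05, so that the relation of Cxcl5 rested on those libraries. With the library labelled replicate 5 included, r ranged from 0.72 (Cxcl5 with Cxcr2) to 0.82 (Cxcl2 with Cxcr2), which is the distance between that library and the rest. In the 9 KI libraries with plainly numbered titles, r with the neutrophil markers was 0.94 for Cxcr2, 0.92 for Csf3r, 0.66 for Cxcr1, 0.17 for Cxcl1, 0.09 for Cxcl2 and 0.18 for Cxcl5; no L code held 6 of these libraries.

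**Figure D4:**
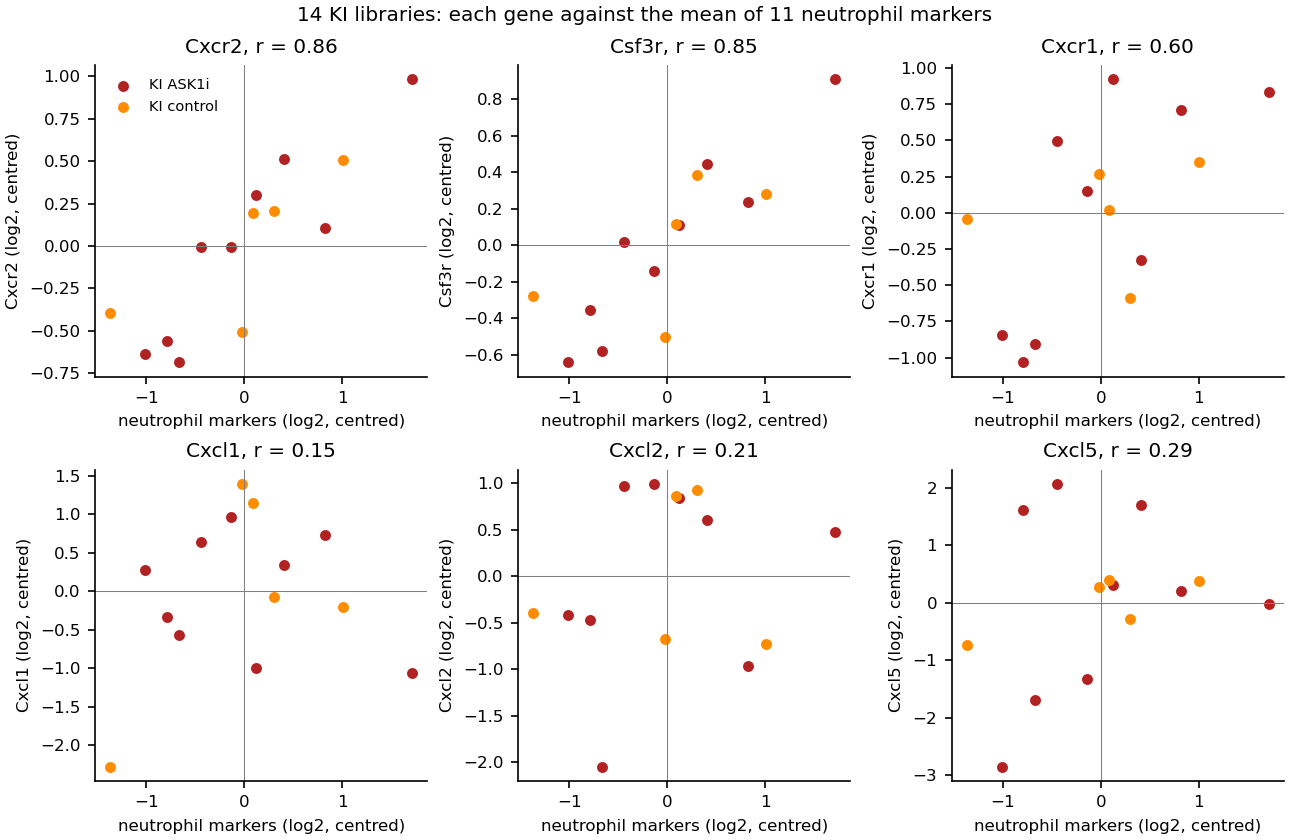
Log2 CPM of each gene (vertical) against the mean log2 CPM of 11 neutrophil markers (horizontal) in 14 KI libraries, both with the mean of the diet group subtracted; each point is a library. Cxcr2 and Csf3r rise along the markers (r = 0.86 and 0.85), and Cxcl1, Cxcl2 and Cxcl5 do not line up with them (r = 0.15, 0.21 and 0.29).

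Over the same 14 KI libraries and 13058 other genes, the genes whose pattern was most like Cxcr2 were Bst1 (r = 0.97), Rasgrp4 (0.97) and Csf3r (0.97), and those most like Csf3r were Rasgrp4 (0.98), Srgn (0.97) and Fxyd5 (0.97). Those most like Cxcl1 included Nfkbia (0.92), which encodes the NF-kB inhibitor IkB-alpha, and Msln (0.90), which encodes mesothelin. Those most like Cxcl2 were Tlr13 (0.85), which encodes an endosomal receptor for bacterial RNA, Ctbp2 (0.83) and Sema4c (0.82). In the 9 KI ASK1i libraries alone, the values for the genes named here ran from 0.80 (Cxcl2 with Ctbp2) to 0.98 (Csf3r with Rasgrp4). The genes named for the ligands and for the receptors had none in common. These are the highest of many values over a few libraries and carry no test.

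Most genes tested from lists of the wider pathway were also called higher in KI. The lists were chosen with earlier results of these data known. How many of their genes passed the filter only through KI libraries was not counted. Neutrophil, monocyte and macrophage markers were higher in KI as well, and the part of cell numbers in the values below was not tested. Of 63 pathway genes tested from 7 lists, 50 were higher and 7 lower in KI ASK1i than in WT ASK1i, with a median log2 fold change of 1.25, and 50 were higher and 6 lower in KI control than in WT control, with a median of 1.41 (edgeR). The median over all genes tested was 0.01 and -0.03. Of all 14934 genes tested, 30.3% were higher and 28.8% lower in the first comparison, and 27.8% and 28.9% in the second. The counts by list below stand beside the same shares. At an unadjusted p below 0.05, the first comparison had 92.1% of the 63 genes, against 62.8% of all genes tested. The second had 90.5%, against 61.4%. With diet, 0 of the 63 were called in KI, in WT or for the difference between them. At an unadjusted p below 0.05 there were 9 of the 63 in KI (14.3%, against 10.3% of all genes tested), 2 in WT (3.17%, against 13.9%) and 2 for the difference (3.17%, against 8.38%). Their median log2 fold change with diet was -0.22 in KI and -0.10 in WT, against 0.03 and 0.00 over all genes tested. With raw library totals the median of all genes moved to 0.09 and 0.10 in the comparisons of KI ASK1i and of KI control with WT.

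Among cytokines upstream of the ligands and regulators of NF-kB, 13 of 16 were higher and 2 lower in KI ASK1i than in WT ASK1i, and 12 higher and 2 lower in KI control than in WT control. Tnfrsf1a, the main receptor of tumour necrosis factor, rose by 0.95 in KI ASK1i and 1.07 in KI control on the log2 scale. Tnf itself rose by 2.78 and 3.05, and Il1b, the interleukin that the NLRP3 inflammasome activates, by 3.09 and 3.14. Zc3h12a, which encodes Regnase-1, a nuclease that degrades inflammatory messenger RNAs, rose by 2.75 and 2.44. The lower ones were Il17rc, a subunit of the interleukin-17 receptor (-0.53 and -0.39), and Rela, an NF-kB subunit (-0.19 and -0.24). Il17ra, another subunit of that receptor, was higher (1.16 and 1.15), as was Nfkb1, another NF-kB subunit gene (0.36 and 0.55). Zfp36, an RNA-binding protein that destabilises chemokine messenger RNAs, was not called (0.15 and -0.06), and Traf3ip2, an adaptor of the interleukin-17 receptor, was called in KI ASK1i (0.89) but not in KI control (0.38, adjusted p = 0.197); the difference was not called (adjusted p = 0.685). In each pair of values the first is KI ASK1i against WT ASK1i and the second KI control against WT control, here and in what follows.

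Other CXC ligands were higher in 5 and lower in 2 of 9 cases in KI ASK1i, and higher in 7 and lower in 1 in KI control. Cxcl14 changed by 4.18 and 4.35, Pf4, the platelet chemokine, by 2.28 and 2.96, and Cxcl16, a scavenger receptor and ligand of CXCR6, by 1.201 and 1.57. Cxcl12, the ligand of CXCR4 that holds neutrophils in bone marrow, was lower (-0.64 and -0.69). Cxcl11, a CXCR3 ligand, was the second lower one in KI ASK1i (-0.61) and was not called in KI control (-0.36). Of 4 atypical and retention receptors, 3 were higher in KI ASK1i and 4 in KI control, led by Cxcr4, the receptor of CXCL12 (2.94 and 3.22), and Ccrl2, a chemerin-binding receptor (1.57 and 1.79), with Ackr3 at 0.91 and 0.82. Ackr2, which scavenges CC chemokines, was the one not called in KI ASK1i (0.17, and 0.64 in KI control). All 6 receptors for other neutrophil attractants were higher in both, such as C5ar1 for complement C5a (3.55 and 4.00), Ltb4r1 for leukotriene B4 (3.48 and 3.63) and Fpr2 for formyl peptides (2.82 and 3.14).

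Downstream of the receptors the lists differed. Of 11 genes of CXCR2 signalling, 10 were higher in both comparisons, among them the Src-family kinase gene Fgr (2.85 and 2.90) and Pik3r5, the regulatory subunit of phosphoinositide 3-kinase gamma (2.53 and 2.54), and Gnai3, a G-protein subunit, was not called (-0.16 and -0.19). Of 10 genes of G-CSF receptor signalling, 6 were higher and 3 lower in KI ASK1i and 5 higher and 3 lower in KI control. Socs3, the feedback inhibitor of that receptor, had the largest value (3.33 and 2.53), followed in KI control by the kinase gene Lyn (1.24 and 1.41), while Jak1 changed by 0.39 and 0.36. The 3 lower ones were the transcription factor genes Stat5a (-0.98 and -1.03), Stat5b (-0.63 and -0.54) and Cebpa (-0.74 and -0.59), all of which hepatocytes also use. Cebpb was called in KI ASK1i (0.89) and not in KI control (0.45), and Cebpe, a factor of granulocyte maturation, in neither (-0.01 and 0.56). Of 7 genes for other colony-stimulating factors and their receptors, 7 were higher in KI ASK1i and 6 in KI control, among them the receptor genes Csf2rb2 (3.34 and 3.49), Csf2rb (3.24 and 3.15) and Csf2ra (2.02 and 2.31). Csf2rb and Csf2rb2 are near-identical copies, so their separate values are uncertain, and Kitl, the ligand of KIT, was not called in KI control (0.26).

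**Figure D5:**
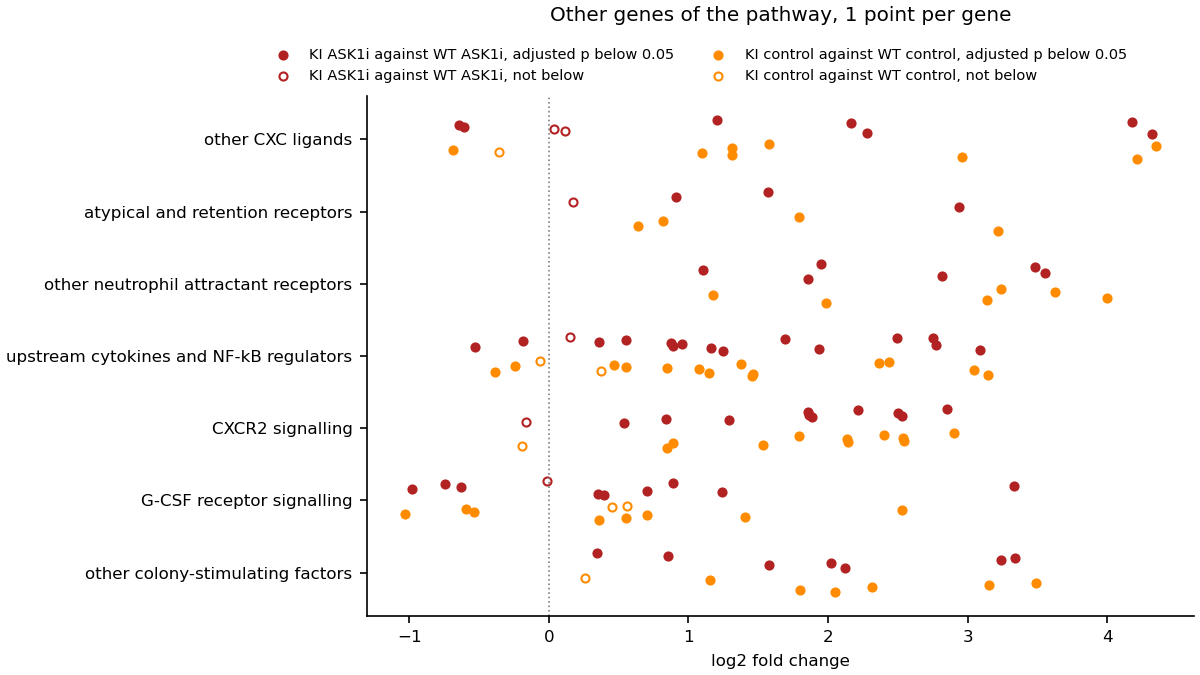
Log2 fold change of each pathway gene tested, 1 point per gene, by list, for KI ASK1i against WT ASK1i (red) and KI control against WT control (orange); filled points passed an adjusted p of 0.05. Most points lie right of 0, with medians of 1.25 and 1.41 over the 63 genes, and the G-CSF receptor signalling list has 3 filled points left of 0 in each comparison.

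Of the other genes whose promoters held both the NF-kB and the TATA letters, those tested were Ccl9, Cd300lb, Rbp2 and Snhg8. Ccl9, a CC chemokine gene, was higher in KI (0.52 in KI ASK1i and 0.99 in KI control), as was Cd300lb, a myeloid receptor gene (2.59 and 2.57), whereas Rbp2 (-0.87 and 0.28) and Snhg8 (0.21 and -0.41) were not called (edgeR).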

How the data were processed

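RNA was isolated from fresh frozen liver (Qiagen miRNeasy) and made into TruSeq Stranded mRNA libraries, per the labels' protocols. The submitters' processing notes name CASAVA 1.8.2, STAR 2.4, RSEM 1.2.14 and the build mm10, without settings or an annotation. The authors deposited raw RSEM expected counts for each gene; between 91.4% and 93.7% of a library's values were whole numbers. RSEM shares out reads that match several genes. Gene starts given from 0 in the table were raised by 1.

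Expected counts were rounded and fitted for all 33 libraries in R 4.3.3 with edgeR 4.0.16 (TMM, filterByExpr by group, robust quasi-likelihood F test), with group, sex and title set (numbered or P) as terms. P-values were two-sided and adjusted by Benjamini-Hochberg across the 14934 genes, with a threshold of 0.05. SE was taken from the F statistic. Cxcl3 and Csf3 were compared by exact permutation tests on log2(CPM + 0.1), ratios by exact permutation tests, and correlations by permutation tests with 100000 resamples. These tests had no term for sex or title set. The male libraries, 4 in KI control and 3 in WT control, are too few for an exact p below 0.05. The floor was 3 counts over a group and counting intervals were 95% exact (Clopper-Pearson) intervals. DESeq2 1.42.0, limma-voom (limma 3.58.1), RLE size factors, other filters, covariates and subsets, a replicate block and each library left out were alternatives. Raw library totals, the neutrophil marker relation, numbered titles for the correlations and left-out libraries for Cxcl3 and Csf3 were added after seeing the data. The fits were tested on simulated data. Same-numbered libraries were not treated as pairs, because the labels do not say that the number pairs mice. In 14 of 37 such pairs r was over 0.1 (-0.21 to 0.36). Without a reference from differently numbered libraries, these values cannot decide whether pairs exist. No 2 libraries were repeats (lowest chi-square per gene 24.0 over 128 pairs of a group).

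The 8 genes and all lists were chosen with earlier results of these data known. From each pathway list the rule named up to 3 called genes with the smallest p in KI control against WT control and up to 2 that did not pass, and per gene of at least 1 CPM the 3 most similar ones. Il1b, Cxcl12, Ackr3, Il17rc, Il17ra, Rela, Nfkb1, Stat5a, Stat5b and Cebpa, and the genes with both promoter patterns, were named after their values were seen. Of the genes that the rule named, 2 are not reported here.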

Additional observations from a re-analysis of the deposited data

Results flagged for a closer look

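Of 30 sets of values of 1 gene in 1 group, 7 held a library far from the others. The nominal rate of about 1 in 20 does not apply to sets where all libraries but 1 hold 0 counts. Several of the flags also fall on the same library, so they are not independent. In the library labelled KI ASK1i replicate 5 the level was far below the other 9 for Cxcl1 (1.43 CPM, 47 counts), Cxcr2 (0.366 CPM, 12 counts), Csf3r (4.30 CPM, 141 counts) and Cxcr1 (0 CPM, 0 counts). Its neutrophil marker sum was 48.6 CPM, inside the WT ASK1i range of 26.6 to 52.3 CPM, and its Nlrp3 level was 2.10 CPM, below the WT ASK1i range of 2.38 to 3.88 CPM. Cxcl3 in WT ASK1i replicate 6 (0.0275 CPM) and Csf3 in WT control replicate 2P (0.0318 CPM) stood out because they held 1 count where the other libraries of the group had 0. Csf3r was lowest in WT ASK1i replicate 3 (2.12 CPM, 64 counts), where the other WT ASK1i libraries had up to 4.49 CPM.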

How the results depend on the processing

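The 6 genes that passed the filter were called in both KI against WT comparisons, and 0 with diet or for the difference of diet effects, under every alternative run, except that 8 of 8 were called with no filter and 5 of 5 with 2 groups only, where Cxcr1 was not tested. These counts are not support, because Cxcl2, Cxcl5 and Cxcr1 passed the filter only through KI libraries and the background was high. With 1 library left out in turn, 8371 to 9435 of all genes were called in KI ASK1i against WT ASK1i. In KI control against WT control, 7386 to 8926 were called. Signs that turned belonged to diet effects, differences of diet effects or correlations, none of them called; the cause was not tested. In KI ASK1i against KI control the values were -0.16 for Cxcl1 and -0.14 for Cxcr1 (limma-voom), 0.030 for Csf3r and 0.13 for Cxcr2 (L code), 0.11 for Cxcl5 (no sex or title set) and 0.16 (numbered titles only), 0.082 for Csf3 and 0.14 for Cxcr2 to Csf3r (without the KI ASK1i library numbered 5), and 0.020 for that ratio (males only). In WT ASK1i against WT control they were, for Cxcl1, -0.12 (limma-voom), -0.17 (L code) and -0.10 (replicate block), for Cxcl5 -0.23 (numbered titles) and -0.47 (males), and for Cxcl2 to Cxcl1 0.17 (males). For the difference of diet effects they were, by limma-voom, -0.14 for Csf3r, -0.036 for Cxcl1, -0.10 for Cxcr2 and 0.21 for Cxcl2; for Cxcl2 0.000713 (DESeq2), 0.47 (no sex or title set), 0.12 (replicate block) and 0.030 (without that library); for Cxcl1 -0.10 (no sex or title set) and -0.45 (males); and for Cxcl5 0.39 (numbered titles). For r within KI they were, for Cxcl1, 0.80 with Cxcr2 and 0.75 with Csf3r (that library included), 0.054 and 0.0030 (numbered titles), and -0.24 (KI ASK1i only) and -0.29 (without the 2 farthest libraries) with neutrophil markers; for Cxcl5 without the 2 farthest they were -0.10 with Cxcr2, -0.052 with Csf3r and -0.11 with the markers. Leaving out 1 library at a time gave, in KI ASK1i against KI control, -0.31 to 0.31 for Csf3, -0.15 to 0.41 for Cxcl1, -0.77 to 0.063 for Cxcl5 and -0.13 to 0.14 for Cxcr2 to Csf3r; in WT ASK1i against WT control, -0.044 to 0 for Csf3, -0.41 to 0.22 for Cxcl1, -0.19 to 1.15 for Cxcl5, -0.18 to 0.35 for Cxcl5 to Cxcl1 and -0.12 to 0.14 for Cxcr2 to Csf3r; and for the difference of diet effects, -0.22 to 0.16 for Csf3r, -0.20 to 0.43 for Cxcl1, -0.30 to 0.29 for Cxcl2, -1.50 to 0.024 for Cxcl5 and -0.17 to 0.33 for Cxcr2.

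Counts over all genes moved more. In KI ASK1i against KI control the 8 genes became 37 (DESeq2), 4 (RLE), 3 (no sex or title set), 12 (without that library) and 0 (L code, replicate block, 2 groups, males, numbered titles). In WT ASK1i against WT control the 209 became 366 (DESeq2), 491 higher and 210 lower (2 groups), 375 (without that library), 133 (replicate block), 23 (L code), 19 (numbered titles) and 0 (males), and in KI control against WT control the 8466 became 5103 with the L code. The replicate block changed no call of these genes, and the labels do not say whether same-numbered libraries are paired. Low counts limit Cxcl3, Csf3, Cxcr1 and, in WT, Cxcl5.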
